A study of Rattus norvegicus with 20 samples.

Results

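The genes described here are 44 genes of cell division in the rat ovary, taken as a fixed list. They comprise 19 genes of S phase and DNA replication, 23 genes of G2 and mitosis, and the D-type cyclins Ccnd1 and Ccnd2. Each was read from the brightest array probe whose transcript accession matched it. For 42 of the 44 a probe was matched, and all 42 were well above background on all 20 arrays. They stand among 12452 named genes and 23258 probes that were tested. Mcm5, a subunit of the replicative helicase, and Top2a, the topoisomerase that untangles chromosomes before mitosis, had no matched probe and are not analysed here.

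Ovaries were from daughters of Sprague Dawley rats whose diet carried a mixture of brominated flame retardants (BFRs). Dams ate it from at least a week before mating until their litters were weaned at day 21, and whole ovaries were taken on postnatal day 46. Control feed held none, and the 3 other feeds, at 0.75, 250 and 750 mg per kg of feed, aimed at 0.06, 20 and 60 mg per kg body weight each day at an assumed food intake. By share, BDE-209 was 44.2% of the mixture, DE-71 was 52.1%, HBCD was 3.3% and DE-79 was 0.4%. There were 5, 4, 5 and 6 animals at the respective doses, each from its own litter, each on 1 single-colour array, and a further animal at 0.06 that the submitters set aside is not analysed here. By design the groups differed in the dams' feed alone, so all animals share strain, sex and age, and direct feeding had ended at weaning in every group.

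A dividing cell first copies its DNA and then separates the copies. In late G1, D-type cyclins and cyclin E release E2F transcription factors, which switch on the genes of the replication machinery and of nucleotide supply. In G2, FOXM1 and B-MYB drive the genes of mitosis, among them Cdk1 and its B-type cyclins, the spindle motors and the checkpoint that waits for every chromosome to attach. In the ovary the dividing cells are mainly granulosa cells of growing follicles, in which cyclin D2 is induced by FSH, while luteal cells have largely left the cycle.

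Promoter letters differed between the S-phase and the mitotic genes, and a few promoters are shown because they carry the elements by which these groups are usually told apart. The RefSeq table (build GRCr8) held a start site for 32 of the 44 genes, 14 of S phase and 18 of mitosis. It did not list Rrm2, Aurkb, Cdc6, Tpx2, Ccnd1, E2f1, Foxm1, Ccna2, Ube2c, Mcm4, Ccne2 and Ccnd2. Windows from 250 bases before to 50 bases after the start were searched on both strands for the E2F letters TTTGGCGC, TTTCCCGC, TTTCGCGC and TTTGCCGC, the cell-cycle homology region letters TTTGAA, and the NF-Y letters CCAAT. E2F letters were in 9 of 14 S-phase windows and in 1 of 18 mitotic windows, that of Cdk1, against 2.14% of all 33469 promoters. TTTGAA was in 13 of 18 mitotic windows and 2 of 14 S-phase windows, Mcm2 and Slbp, against 18.35% of all promoters. CCAAT was in 14 of 18 mitotic and 8 of 14 S-phase windows, against 37.49%. Some matches share bases, E2F with E2F in Mcm2, Mcm5 and Mcm6, E2F with CCAAT in Mcm7, and TTTGAA with CCAAT in Mki67. A match describes the sequence and not a bound factor.

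The 250 bases before the start are printed for 7 genes, 5′ to 3′ on the gene's strand, with E2F, TTTGAA and CCAAT letters of either strand in capitals. Those of S phase are Mcm3 at chr9:30733747-30733996 (minus strand), Mcm7 at chr12:22163179-22163428 (minus strand), Slbp at chr14:81295998-81296247 (plus strand) and Tk1 at chr10:103544778-103545027 (minus strand). In Mcm3 the last capitals run on past the start.
Mcm3: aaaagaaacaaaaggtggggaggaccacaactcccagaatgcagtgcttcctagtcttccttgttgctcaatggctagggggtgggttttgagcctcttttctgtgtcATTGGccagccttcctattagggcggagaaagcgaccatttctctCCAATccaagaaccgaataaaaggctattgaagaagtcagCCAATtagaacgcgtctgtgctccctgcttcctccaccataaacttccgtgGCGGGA
Mcm7: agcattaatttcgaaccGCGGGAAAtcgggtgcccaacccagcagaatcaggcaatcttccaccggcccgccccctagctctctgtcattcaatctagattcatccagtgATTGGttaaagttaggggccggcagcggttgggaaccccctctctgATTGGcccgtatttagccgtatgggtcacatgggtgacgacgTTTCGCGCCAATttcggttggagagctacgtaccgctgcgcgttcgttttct
Slbp: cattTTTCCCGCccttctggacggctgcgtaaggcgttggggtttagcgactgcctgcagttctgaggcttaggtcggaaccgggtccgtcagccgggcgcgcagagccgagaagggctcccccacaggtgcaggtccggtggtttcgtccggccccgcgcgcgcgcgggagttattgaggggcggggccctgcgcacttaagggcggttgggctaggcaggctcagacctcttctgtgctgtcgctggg
Tk1: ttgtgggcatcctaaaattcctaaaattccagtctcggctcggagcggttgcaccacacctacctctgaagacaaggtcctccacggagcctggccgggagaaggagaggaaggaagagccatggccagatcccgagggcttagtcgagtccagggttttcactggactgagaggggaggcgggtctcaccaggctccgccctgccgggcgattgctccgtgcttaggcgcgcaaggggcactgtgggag
The mitotic ones are Cdk1 at chr20:19265043-19265292 (plus strand), Mki67 at chr1:199952594-199952843 (minus strand) and Cdc20 at chr5:137255800-137256049 (minus strand).
Cdk1: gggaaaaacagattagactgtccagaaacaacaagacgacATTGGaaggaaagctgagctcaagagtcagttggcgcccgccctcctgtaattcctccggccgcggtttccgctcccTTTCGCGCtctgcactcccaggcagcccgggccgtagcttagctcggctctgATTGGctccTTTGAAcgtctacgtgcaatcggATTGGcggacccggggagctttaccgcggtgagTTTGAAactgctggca
Mki67: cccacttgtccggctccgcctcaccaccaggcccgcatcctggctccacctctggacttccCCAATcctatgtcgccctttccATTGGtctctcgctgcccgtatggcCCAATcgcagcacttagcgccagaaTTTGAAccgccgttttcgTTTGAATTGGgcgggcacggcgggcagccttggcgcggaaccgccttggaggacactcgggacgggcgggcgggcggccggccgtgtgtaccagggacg
Cdc20: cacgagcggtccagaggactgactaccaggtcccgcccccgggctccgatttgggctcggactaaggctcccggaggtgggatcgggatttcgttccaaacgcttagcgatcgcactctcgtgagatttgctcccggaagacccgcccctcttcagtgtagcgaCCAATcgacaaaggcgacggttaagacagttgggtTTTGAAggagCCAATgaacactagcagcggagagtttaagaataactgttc
The Tk1 window held none of the 3 kinds of letters. Cdk1 held all of them.

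Levels are given as log2 of the processed array signal minus log2 of the array's 75th percentile, so that 0 is the 75th percentile of an array and 1 unit is a doubling. A level is compared only between arrays at the same probe, because probes differ in brightness. Between 74.8% and 83.4% of an array's probes were well above background, and no probe was saturated. The arrays lay on 3 slides, each of which held all 4 dose groups. All 18 measured granulosa markers and all 18 luteal markers were above background on every array, as were 12 of 14 measured oocyte markers. Of 20 listed oocyte markers, 14 were measured. Smooth muscle markers (7 of 7) and macrophage markers (16 of 17) were above background as widely, so detection does not test the tissue label. In whole ovaries, more dividing cells and more RNA per dividing cell cannot be told apart. Differences were tested with limma across all 23258 probes, and p-values were adjusted by the Benjamini-Hochberg method. No probe passed an adjusted p of 0.05 in any dose comparison, so the unadjusted counts below rank the genes and call none of them.

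Genes of DNA replication had higher means at 20 and 60 mg per kg per day than in controls, without exception among the 18 measured. At 60 their median difference was 0.32 on the log2 scale, at 20 it was 0.22 and at 0.06 it was 0.05. With the mitotic genes and D cyclins, 39 of 42 members had higher means at 60, where 39.7% of all probes did, and 39 of 42 at 20, where 57.9% did. At 0.06 it was 27 of 42, against 43.6% of probes, and 14 without control replicate 1 but 36 without control replicate 2. None of the 42 had an adjusted p under 0.05 at any dose, where the smallest adjusted p was 0.782 at 60 and 0.929 at 20, against a background of 0%, 0% and 0% of probes. At an unadjusted p under 0.05, 16 members were higher at 60 (background 2.81%), 7 at 20 (background 2.73%) and 1 at 0.06 (background 1.43%), and none was lower. The 3 comparisons share the same 5 control arrays. Leaving out control replicate 1 or control replicate 4, the count at 60 was 5 in either case, and without control replicate 2 or 60 replicate 4 it was 28. Without 60 replicate 2 or 6 it was 8 or 7. At 20 it was 2 without control replicate 1 or 4 and 14 without control replicate 2, 12 without control replicate 5, and 3 without 20 replicate 3. With each array left out in turn, 39 to 40 members stayed above the control mean at 60, and their median difference lay between 0.24 and 0.39.

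**Figure D1:**
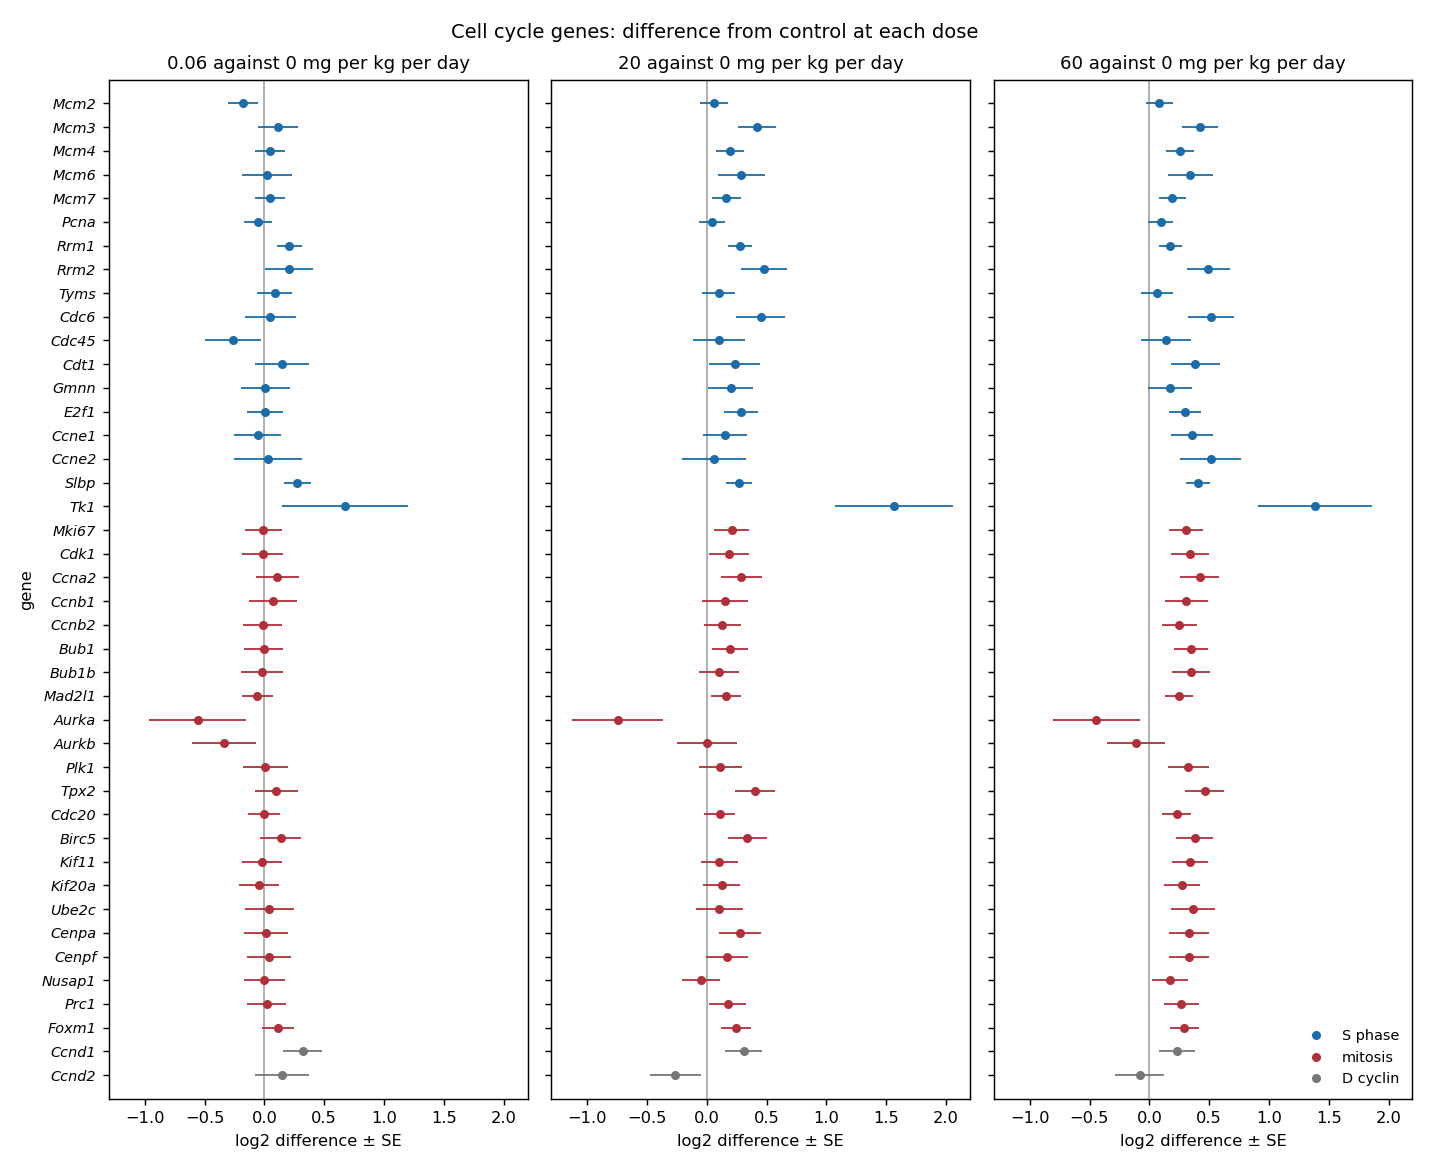
Difference in log2 level from control, with its standard error from the limma fit, for each of the 42 measured genes (y axis) at 0.06, 20 and 60 mg per kg per day (panels), S-phase genes in blue, mitotic genes in red and D cyclins in grey. At 60 the points lie to the right of 0 for all but 3 genes, Aurka, Aurkb and Ccnd2, and Tk1 has the longest bars.

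Slbp, which binds the stem-loop of histone mRNAs and lets them be made in S phase, was the member with the smallest p at 60. Its control levels were -0.65, -0.42, -0.33, -0.67 and -0.21. At 0.06 they were 0.14, -0.22, -0.34 and -0.29, at 20 they were -0.10, -0.16, -0.08, -0.38 and -0.21, and at 60 they lay between -0.19 and 0.11 with a median of -0.06. All 6 arrays at 60 exceeded all 5 control arrays, while the groups overlapped at the lower doses. The difference was 0.41 ± 0.10 (SE) at 60, 1.32-fold, with a 95% interval of 0.19 to 0.62, an unadjusted p of 0.000963 and an adjusted p of 0.782. It was 0.27 ± 0.11 at 20 and 0.28 ± 0.11 at 0.06, and a second Slbp probe gave 0.43 ± 0.11 at 60. Slbp and Tpx2 were the only 2 members whose arrays at 60 did not overlap the controls, where 0.215% of all probes lay wholly above them.

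Tk1, the thymidine kinase that salvages thymidine for DNA synthesis, varied widely within groups. Its control levels were -0.84, 0.34, 1.19, -0.86 and -0.64. At 0.06 they were 1.57, -0.83, 1.60 and -0.29, at 20 they were 1.86, 1.58, 2.12, 0.35 and 1.11, and at 60 they lay between 0.30 and 1.54 with a median of 1.35. Thus 3 control arrays and 2 arrays at 0.06 lay below 0 and every other array above it. The mean difference was 1.56 ± 0.50 at 20 and 1.39 ± 0.47 at 60, 2.62-fold, with unadjusted p of 0.00540 and 0.00903 and adjusted p of 0.929 and 0.782. Its residual SD beside dose and slide was 0.78, so the interval at 60 ran from 0.39 to 2.38.

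Ribonucleotide reductase makes deoxyribonucleotides from ribonucleotides, and Rrm2 encodes its cell-cycle-regulated subunit. Control levels of Rrm2 were 1.11, 1.91, 1.67, 0.98 and 1.40, and at 60 they lay between 1.67 and 2.19 with a median of 1.94. At 20 they were 1.98, 1.82, 2.17, 1.84 and 1.65, overlapping the upper controls. The difference was 0.48 ± 0.19 at 20 and 0.49 ± 0.18 at 60, and a second probe of the gene gave 0.65 ± 0.22 and 0.64 ± 0.21. Rrm1, the large subunit, differed by 0.28 ± 0.10 at 20 and by 0.18 ± 0.10 at 60. Tyms, which makes thymidylate, differed by 0.10 ± 0.14 and 0.06 ± 0.13, within its standard error at both doses.

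Origins of replication are licensed when CDC6 and CDT1 load the MCM helicase, which CDC45 then activates. Cdc6 had control levels of -4.25, -3.60, -3.46, -4.18 and -3.54 and levels at 60 between -3.67 and -2.83 with a median of -3.35. Its difference was 0.45 ± 0.20 at 20 and 0.52 ± 0.19 at 60. For Mcm3 the control levels were 0.80, 1.30, 1.48, 0.91 and 1.36, those at 20 were 1.61, 1.76, 1.64, 1.34 and 1.58, and those at 60 lay between 1.33 and 1.93 with a median of 1.59. Mcm3 differed by 0.42 ± 0.16 at 20 and 0.42 ± 0.15 at 60, with overlap of the groups on the lower exposed and upper control arrays. Mcm2 levels lay between -0.73 and -0.53 with a median of -0.67 in controls and between -0.83 and -0.14 with a median of -0.59 at 60. Mcm2 differed by 0.08 ± 0.11 at 60 and -0.18 ± 0.12 at 0.06, while Mcm4, Mcm6 and Mcm7 differed by 0.26 ± 0.11, 0.34 ± 0.19 and 0.19 ± 0.11 at 60. A second Mcm4 probe differed less, by 0.07 ± 0.25 at 60, and at 0.06 it lay at -0.63 ± 0.28 where the brightest probe had 0.05. Cdt1 differed by 0.38 ± 0.20, its inhibitor geminin (Gmnn) by 0.17 ± 0.18 and Cdc45 by 0.14 ± 0.21 at 60.

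Pcna, the sliding clamp of the replicative polymerases, is a common marker of dividing cells, and its difference was 0.09 ± 0.10 at 60 and 0.04 ± 0.11 at 20. Its control levels were 0.85, 1.06, 0.94, 0.94 and 1.12 and those at 60 lay between 0.77 and 1.35 with a median of 1.13, so the controls fell inside the exposed range. E2f1, the transcription factor that switches on S-phase genes, had control levels of -1.37 to -0.89 and levels at 60 between -1.17 and -0.47 with a median of -0.83. It differed by 0.28 ± 0.14 at 20 and 0.30 ± 0.14 at 60. The E cyclins, partners of CDK2 at the entry to S phase, differed by 0.36 ± 0.18 for Ccne1 and 0.51 ± 0.26 for Ccne2 at 60, and by 0.15 ± 0.19 and 0.06 ± 0.27 at 20.

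Genes of G2 and mitosis were also mostly higher at 60. There 20 of 22 lay above the control mean (background 39.7%), with a median difference of 0.32. Of the 22, 9 had an unadjusted p under 0.05 (background 2.81% higher). At 20 it was 20 of 22 above the control mean (background 57.9%), with a median of 0.16. Only Tpx2 had an unadjusted p under 0.05 at 20 (background 2.73% higher). At 0.06, 11 of 22 were above the control mean (background 43.6%). Cdk1, the kinase that starts mitosis, had control levels of 1.31, 1.98, 1.61, 1.25 and 1.42 and levels at 60 between 1.46 and 2.15 with a median of 1.89. It differed by 0.34 ± 0.16 at 60 (adjusted p = 0.782) and by 0.19 ± 0.16 at 20. Mki67, the nuclear protein stained to count dividing cells, had control levels of 0.46, 1.12, 0.86, 0.39 and 0.70 and levels at 60 between 0.75 and 1.23 with a median of 1.08. Its difference was 0.31 ± 0.14, and further Mki67 probes, 2 of them, gave 0.26 each. In both genes control replicate 2 lay among the highest arrays and control replicates 1 and 4 among the lowest.

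Most other mitotic genes also had higher means at 60. Foxm1, the transcription factor of the mitotic programme, had control levels of -1.94, -1.43, -1.66, -1.65 and -1.41, levels at 60 between -1.71 and -1.08 with a median of -1.27, and a difference of 0.29 ± 0.12. For cyclin B1 (Ccnb1) the control levels lay between -1.96 and -0.95 with a median of -1.37, those at 60 lay between -1.58 and -0.62 with a median of -1.09, and the difference was 0.31 ± 0.18. Tpx2, which nucleates spindle microtubules and activates Aurora A, had control levels of -2.85, -2.01, -2.24, -2.48 and -2.15, levels at 20 of -2.09, -2.27, -1.69, -1.86 and -1.82 and levels at 60 between -1.98 and -1.82 with a median of -1.85. The Tpx2 groups at 0 and 60 did not overlap, and the difference was 0.46 ± 0.16, 1.38-fold (adjusted p = 0.782), against 0.40 ± 0.17 at 20. The spindle checkpoint genes Bub1, Bub1b and Mad2l1 differed by 0.35 ± 0.14, 0.35 ± 0.16 and 0.25 ± 0.12 at 60, and the spindle motor Kif11 by 0.34 ± 0.15. A second Bub1 probe gave 0.10 ± 0.30. Cyclin A2 (Ccna2), which serves both S phase and mitosis, differed by 0.42 ± 0.16, cyclin B2 (Ccnb2) by 0.25 ± 0.15, the mitotic kinase Plk1 by 0.33 ± 0.17 and the spindle-bundling Prc1 by 0.27 ± 0.15. Cdc20 and Ube2c, which direct destruction of cyclin B at the end of mitosis, differed by 0.23 ± 0.12 and 0.36 ± 0.19, and the centromere genes Cenpa and Cenpf by 0.33 ± 0.17 and 0.33 ± 0.17. Kif20a, a motor of cytokinesis, differed by 0.28 ± 0.15 and Nusap1 by 0.17 ± 0.15. Bub1b at 60 split into 4 arrays between -2.09 and -1.84 and 2 arrays, replicates 4 and 5, at -2.77 and -2.59, inside the control range of -2.77 to -2.41.

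Aurka was the member with the most negative difference at every dose. It encodes Aurora A, the kinase of the spindle poles that TPX2 activates. Its control levels were 2.86, 1.52, 0.71, 1.47 and -0.01, a span of over 2 log2 units, against 0.97, -0.16, 0.80 and 1.40 at 0.06, 0.52, 0.23, 0.84, 0.94 and 0.30 at 20, and between 0.61 and 1.18 with a median of 0.90 at 60. The exposed groups lay inside the control range except for 1 array at 0.06. The differences were -0.56 ± 0.40, -0.75 ± 0.38 and -0.44 ± 0.37, with adjusted p of 0.929 at 20 and 0.833 at 60. Aurkb, the centromere kinase, differed by -0.11 ± 0.24 at 60, within its standard error. By median Aurkb was higher at 60, -3.06 against -3.47 in controls, so its direction is not settled. Birc5, the survivin subunit of the Aurora B complex, was above the control mean by 0.38 ± 0.16, as was Tpx2. Aurkb was named after its values were seen.

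**Figure D2:**
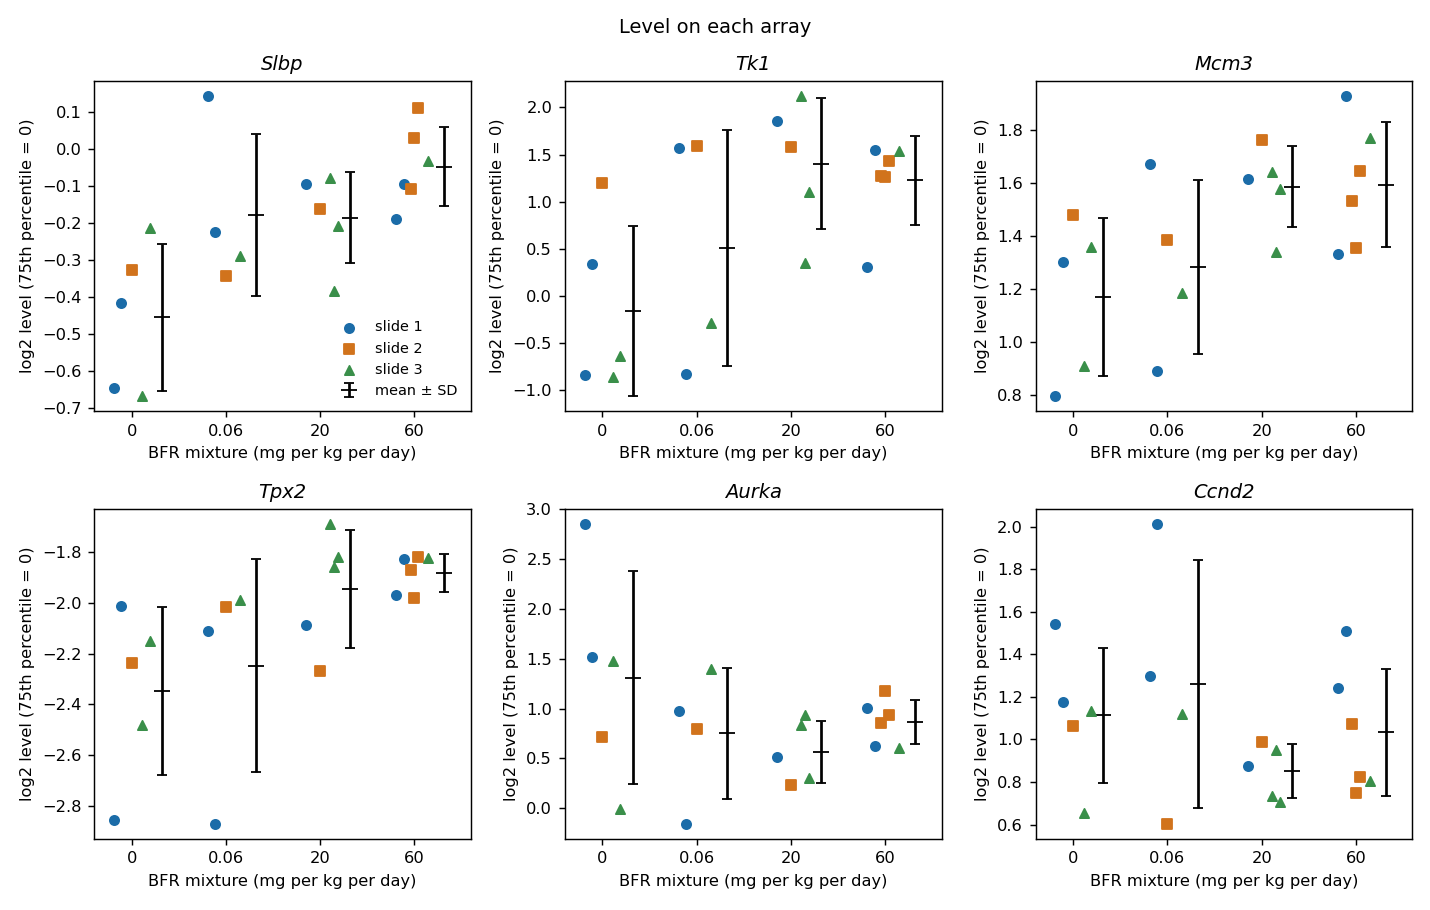
Log2 level (y axis, 0 is the array's 75th percentile) of Slbp, Tk1, Mcm3, Tpx2, Aurka and Ccnd2 on each of the 20 arrays by dose (x axis), with slide shown by colour and marker and the group mean ± SD beside the points. All 6 arrays at 60 lie above all controls for Slbp and Tpx2, Tk1 ranges from -0.86 to 2.12, and the highest Aurka array is a control at 2.86.

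Of the D cyclins, which link mitogens to the cycle, Ccnd1 lay above the control mean at every dose and Ccnd2 below it at 20 and 60. Ccnd1 had control levels of -2.51, -1.70, -2.20, -2.26 and -1.96, and its difference was 0.32 ± 0.16 at 0.06, 0.31 ± 0.15 at 20 and 0.23 ± 0.15 at 60, with an adjusted p of 0.929 at 20. Ccnd2, the D cyclin of granulosa cells, had control levels of 1.54, 1.18, 1.06, 0.66 and 1.13 and levels at 60 between 0.75 and 1.51 with a median of 0.95. Its differences were 0.15 ± 0.23, -0.26 ± 0.21 and -0.08 ± 0.20, so its interval at 60 ran from -0.51 to 0.35.

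Averaged over each group of genes and set to 0 at the control mean, the S-phase genes stood at 0.08 ± 0.27 (SD, n = 4) at 0.06, 0.30 ± 0.19 (n = 5) at 20 and 0.35 ± 0.18 (n = 6) at 60, with a control SD of 0.18 (n = 5). The mitotic genes stood at -0.02 ± 0.25, 0.13 ± 0.14 and 0.26 ± 0.23 at the same doses, with a control SD of 0.23. By array, the S-phase mean was -0.23, 0.18, 0.13, -0.16 and 0.07 in controls and 0.42, 0.37, 0.51, 0.09 and 0.10 at 20, and at 60 it lay between 0.18 and 0.59 with a median of 0.30. The mitotic mean was -0.18, 0.36, 0.06, -0.20 and -0.05 in controls and 0.18, 0.04, 0.25, 0.24 and -0.08 at 20, and at 60 it lay between -0.10 and 0.52 with a median of 0.30. Of the S-phase means, 5 of 6 arrays at 60 and 3 of 5 at 20 exceeded every control, and of the mitotic means 2 of 6 at 60 did. The mitotic mean lay under the S-phase mean on 4 of 5 arrays at 20 and on 5 of 6 at 60. It did so on all 4 at 0.06 and on 3 of 5 controls. Over all 5 arrays at 20 this gap was -0.17 on average, with the control mean set to 0. At 20 the SD of this gap was 0.19, larger than its mean. With each array left out in turn, the mitotic mean at 20 lay between 0.08 (without control replicate 4) and 0.22 (without control replicate 2), and the S-phase mean at 0.06 between -0.02 (without 0.06 replicate 1) and 0.19 (without 0.06 replicate 2). The mitotic mean at 0.06 lay between -0.10 and 0.09 without the same 2 arrays. The gap at 60 lay between -0.16 (without 60 replicate 1) and -0.04 (without control replicate 2).

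**Figure D3:**
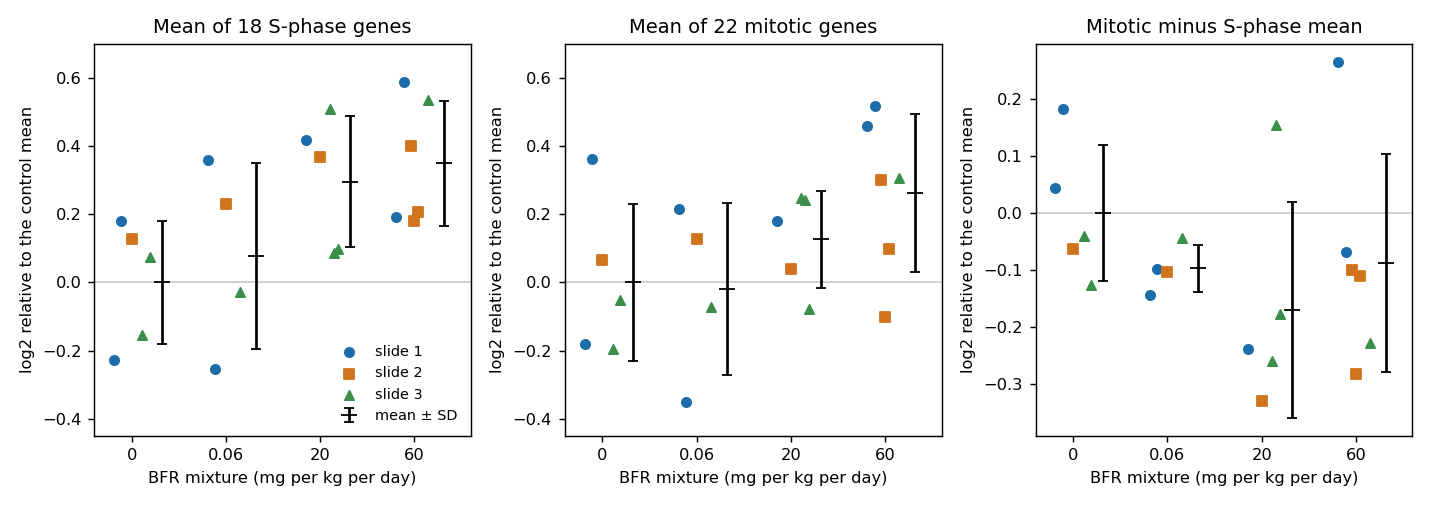
Mean log2 level of the 18 S-phase genes, of the 22 mitotic genes and the gap between them (y axes, relative to the control mean) on each array by dose (x axis), with slide by colour and marker and the group mean ± SD beside the points. At 60 the S-phase means lie between 0.18 and 0.59 and the mitotic means between -0.10 and 0.52, and both overlap the controls.

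Compared with the lowest dose, 38 of 42 members were higher at 60 (background 44.1%), and 8 had an unadjusted p under 0.05 (background 0.989% higher), 3 of S phase and 5 of mitosis, led by Mad2l1 at 0.30 ± 0.13, Bub1 at 0.36 ± 0.15 and Kif11 at 0.36 ± 0.16. Without 0.06 replicate 2, the array with the lowest S-phase and mitotic means of all, that count was 0. It was also 0 without 60 replicate 2, 1 without 60 replicate 6, 2 without 0.06 replicate 5 or 60 replicate 3, 4 without 60 replicate 1, 13 without 0.06 replicate 3, 18 without 0.06 replicate 1, and 20 without 60 replicate 4. Compared with 20, 36 of 42 were higher at 60 (background 36.2%), 21 of 22 mitotic genes by a median of 0.14 and 14 of 18 S-phase genes by a median of 0.03. None of these differences between 20 and 60 had an unadjusted p under 0.05, where 0.778% of probes were higher and 4.90% lower. The joint test of the 3 doses gave 6 members with an unadjusted p under 0.05 (background 3.17%), Slbp, Tk1, Mcm3, Tpx2, Cdc6 and Rrm2, and none with an adjusted one. Without control replicate 1 or 4 it gave 1 member, without 60 replicate 6 or 2 it gave 2 or 3, and without 0.06 replicate 1, 60 replicate 4 or control replicate 2 it gave 11, 14 or 15.

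Other genes of the same machinery, from lists fixed beside the members, followed a like pattern at 60. The lists were chosen with earlier results of these data known, and the arrays are the same, so these genes are not independent evidence. Of 33 further measured mitotic genes, 32 had higher means (background 39.7%), by a median of 0.31. An unadjusted p under 0.05 was reached by 17 (background 2.81% higher), none adjusted. Among these 17 were Kif22, a chromosome-arm motor, at 0.60 ± 0.18, and Sgo2, which protects centromere cohesion and acts in oocyte meiosis, at 0.93 ± 0.30. Ttk, the checkpoint kinase, at 0.43 ± 0.16, and Espl1, the separase, at 0.40 ± 0.15, were others. Of 30 further replication genes, 25 had higher means, by a median of 0.21, and 5 had an unadjusted p under 0.05, including Pole, the leading-strand polymerase, at 0.49 ± 0.18 and the helicase partner Gins1 at 0.45 ± 0.17. At 20 these counts were 29 of 33 with 3, and 26 of 30 with 4, where 57.9% of all probes were higher and 2.73% were higher at an unadjusted p under 0.05. The 17 measured brakes of the cycle, mostly CDK inhibitors and pocket proteins, had 9 higher and 8 lower means at 60. Rbl1, the E2F-bound pocket protein p107, was higher by 0.50 ± 0.17, while the antiproliferative genes Ccng2 and Btg1 were lower, by -0.45 ± 0.16 and -0.40 ± 0.17, each at an adjusted p of 0.782.

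Markers of other cell types also had unequal means by dose, none at an adjusted p under 0.05. At 60, 16 of 17 macrophage markers had higher means, by a median of 0.50, 8 of them at an unadjusted p under 0.05 (background 2.81% higher). Their mean level was between -0.64 and 0.23 against -0.90 to -0.12 in controls. Macrophage markers also differed by slide, 9 of 17 at an unadjusted p under 0.05 (background 32.5%) and 7 at an adjusted one (background 19.2%). Their mean scores were -0.48, 0.78 and -0.19 on slides 1 to 3. Those slides held 2, 1 and 2 control arrays and 2, 3 and 1 at 60. The part of slide in the macrophage differences was not tested. Of 14 endothelial markers, 12 had lower means, by a median of -0.24 over the list, with levels of -1.31 to -0.98 against -1.11 to -0.70. Of 18 granulosa markers, 14 had lower means, by a median of only -0.09, with levels of 0.14 to 0.72 against 0.37 to 0.76. At 20 the same counts were 16 of 17, 12 of 14 and 14 of 18. Of all probes, 39.7% had higher means at 60 and 57.9% at 20, so lower means were common at 60 outside these lists too. The part of these shifts in the cell cycle differences was not tested.

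Fewer of these genes than of all probes differed by slide. Of the 42 members, 1 differed between slides at an adjusted p under 0.05 beside dose group, against 19.2% of all probes, and 3 at an unadjusted p under 0.05, against 32.5%. That gene was Ccnd2, 0.47 lower on slide 2 and 0.45 lower on slide 3 than on slide 1 (adjusted p = 0.0405). Nusap1, a spindle-bundling protein, and Ccne2 had adjusted p of 0.0882 and 0.0991. The call was lost when any of 10 of the 20 arrays was left out, control replicate 4, 0.06 replicates 2, 3 and 5, 20 replicate 3, and 60 replicates 1, 2, 4, 5 and 6. Within slides, the S-phase mean at 60 exceeded that of controls by 0.41 on slide 1 (2 arrays each), by 0.135 on slide 2 (3 arrays against 1) and by 0.58 on slide 3 (1 against 2), and the mitotic mean by 0.40, 0.03 and 0.43.

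Levels of most of these genes went up and down together from animal to animal. After dose group and slide were removed, the median Pearson r over the 20 arrays was 0.84 among the 231 pairs of mitotic genes, 0.53 among the 153 pairs of S-phase genes and 0.54 across the 396 mixed pairs, while over all pairs of named genes it was 0.003. The arrays, their scaling and the residual fit are shared by all pairs, so these are descriptions. Cdk1 had the highest r with the mean of the mitotic genes, 0.99, and Prc1, Plk1 and Mki67 had 0.97, 0.96 and 0.96. In S phase, Mcm4, Cdc6 and E2f1 followed the S-phase mean at 0.94, 0.92 and 0.91.

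A few members stood outside this common movement. Aurka had an r of -0.21 with the S-phase mean and -0.15 with the mitotic mean, although it belongs to the latter. Cdc45 had an r of 0.07 with the S-phase mean, Aurkb 0.40 with the mitotic mean, and Ccnd2 -0.34 and -0.32 with the S-phase and mitotic means. Slbp, the member with the smallest p at 60, had 0.46 with the S-phase mean and 0.12 with the mitotic mean. Rrm2 was the S-phase gene nearest to the mitotic genes, with 0.84 and 0.87. The S-phase and mitotic means themselves had an r of 0.78 over the 20 arrays and 0.76 beside dose and slide.

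**Figure D4:**
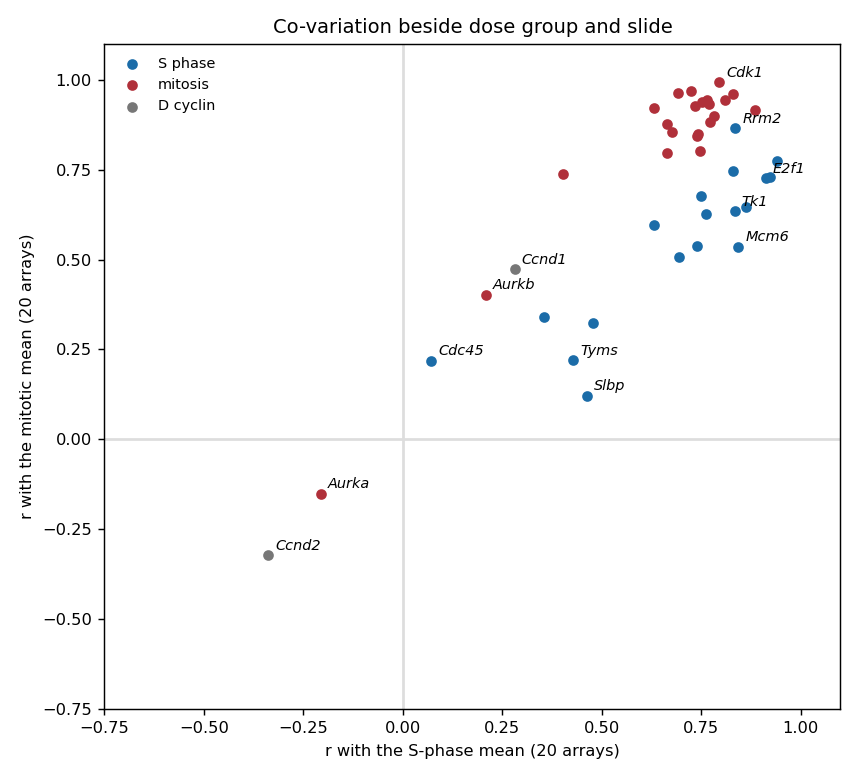
Pearson r of each of the 42 genes with the S-phase mean (x axis) and the mitotic mean (y axis) over 20 arrays, after dose group and slide were removed, a gene's own class mean including itself. Most mitotic genes lie above 0.75 on the y axis, and Aurka (-0.21, -0.15) and Ccnd2 (-0.34, -0.32) lie below 0 on both axes.

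Among 10916 named genes outside the list, those most like the mitotic mean were Ube2t (0.98), Cks2 (0.97), Cep55 (0.97), Fam83d (0.95), Cenpw (0.95), Racgap1 (0.94), Knstrn (0.94), Aspm (0.94), Tacc3 (0.93) and Kif23 (0.93). Of these 10, 6 were on the list of other mitosis genes. Those most like the S-phase mean were Mybl2 (0.96), Dctpp1 (0.94), Gins1 (0.93), Orc1 (0.92), Lum (0.90), Fen1 (0.90), Alad (0.90), Rfc4 (0.90), Haus4 (0.89) and Chaf1b (0.89). Mybl2 encodes B-MYB, Dctpp1 clears aberrant deoxycytidine triphosphates, and Lum encodes lumican, a proteoglycan of the extracellular matrix.

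The state of each ovary was described by marker scores, the mean of z-scaled marker genes, and members were fitted on each score beside dose group. A granulosa score of 18 genes left 0 of 42 called (background 0.0215%), and 32 of 42 slopes were positive (background 53.4%). It was 24 without 60 replicate 4 and 37 without 0.06 replicate 2. Without control replicate 5 and 60 replicate 5, the arrays farthest in that score, it was 27. The smallest p was for Ccnd2, at 0.44 ± 0.15 per unit of score (adjusted p = 0.128), followed by Bub1b at 0.32 ± 0.12 (adjusted p = 0.169). With slide as a block, or without those farthest arrays, Bub1b had an unadjusted p above 0.05. A luteal score of 18 genes called none (background 0.00430%), and 19 of 42 slopes on it were positive (background 42.5%), or 37 of 42 without 60 replicate 4 and control replicate 5, the arrays farthest in that score. On the oocyte score 0 were called (background 1.74%), and the smallest p-values were those of Bub1b at 0.17 ± 0.06 and Foxm1 at 0.12 ± 0.05, with adjusted p of 0.137 and 0.169. Without 60 replicates 1 and 2, the arrays farthest in that score, no member had an unadjusted p under 0.05. Of 22 mitotic slopes, 9 were then positive, against 19 on all 20 arrays. The mean oocyte scores were 0.244, -0.547 and 0.225 on slides 1 to 3.

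Most of the members ran against the endothelial score. On that score of 14 genes, 37 of 42 slopes were negative (background 39.4%), and 10 had an unadjusted p under 0.05 (background 7.85% lower), 8 of them of S phase. Tk1 had -0.96 ± 0.23 per unit (adjusted p = 0.0643), Mcm2 -0.20 ± 0.06, Mcm3 -0.27 ± 0.08, E2f1 -0.21 ± 0.08, Cdc6 -0.30 ± 0.11 and Ccne1 -0.27 ± 0.10. None was called (background 0.641%), although leaving out control replicate 4 or 60 replicate 5 gave 1 call each. The median slope was -0.20 for S-phase and -0.11 for mitotic genes. Without the 2 arrays farthest in score, 20 replicate 4 and 0.06 replicate 2, 38 of 42 slopes were negative. There 5 had an unadjusted p under 0.05, 3 of S phase and 2 of mitosis, and the median slope was -0.16 in each class. The greater share of S-phase genes thus rests on those arrays.

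On the macrophage score of 17 genes, 2 of 42 members passed (background 6.49%). Tk1 rose with it by 0.85 ± 0.19 per unit (adjusted p = 0.0153), and Ccnd2 fell with it at -0.33 ± 0.09 (adjusted p = 0.0341). Slide differed in this score, with means of -0.48, 0.78 and -0.19 on slides 1 to 3, and with slide as a block neither gene was called. Leaving out 0.06 replicate 2, or the 2 arrays farthest in score, also gave 0 calls, and leaving out control replicate 3, 0.06 replicate 3, 20 replicate 4 or 60 replicate 1, 4 or 5 gave 1.

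Cyp17a1, the theca enzyme that makes androgens from progestins, was low on 5 arrays, from -3.52 to -2.62, and between 1.71 and 3.86 on the other 15. The low arrays were control replicate 3, 0.06 replicate 1, 20 replicates 2 and 5 and 60 replicate 5. Cell cycle genes did not split with it. On the low arrays the S-phase mean ranged from 0.10 to 0.37 and the mitotic mean from -0.08 to 0.22, inside the ranges of -0.25 to 0.59 and -0.35 to 0.52 of the other arrays. As a term beside dose, its level left 0 of 42 members called (background 12.4%), with Ccnd1 at 0.05 ± 0.02 per log2 unit (adjusted p = 0.0853) and Ccne2 at 0.08 ± 0.03 (adjusted p = 0.109). A single member was called without control replicate 1, 0.06 replicate 1 or 0.06 replicate 3.

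Akr1c18 encodes the enzyme that inactivates progesterone in regressing corpora lutea (listed as Akr1c3 in RefSeq). It lay between 5.28 and 7.05 on 18 arrays and at -4.23 and -2.48 on the others, control replicate 5 and 0.06 replicate 2. Over all 20 arrays, 3 of 42 members passed on its level (background 7.95%). Aurka rose by 0.15 ± 0.03 per log2 unit (adjusted p = 0.0124) and Cdc45 by 0.07 ± 0.02 (adjusted p = 0.0433), while Tyms fell at -0.05 ± 0.01 (adjusted p = 0.0356). The arrays of low Akr1c18 had the lowest Aurka, -0.01 and -0.16, and the lowest Cdc45, 0.13 and -0.18, of all 20, and control replicate 1 had the highest of both, 2.86 for Aurka. The calls rest on these arrays. Without control replicate 5, without 0.06 replicate 2, or without both, the count was 0, and with slide as a block or without 0.06 replicate 5 it was 1.

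A subset of the 18 arrays of high Akr1c18 was fitted alone, chosen after the data were seen. There 39 of 42 slopes on the Akr1c18 level were negative (background 57.6%), by a median of -0.29 per log2 unit, and 23 had an unadjusted p under 0.05 (background 6.53% lower), 17 of 22 mitotic and 5 of 18 S-phase genes and Ccnd1. Bub1 had -0.40 ± 0.09 (adjusted p = 0.114), Plk1 -0.45 ± 0.10 (adjusted p = 0.139), Prc1 -0.39 ± 0.09 (adjusted p = 0.147), Mcm7 -0.27 ± 0.07, Cenpa -0.40 ± 0.11 and Foxm1 -0.28 ± 0.08. None passed an adjusted p of 0.05. With slide as a block 25 had an unadjusted p under 0.05, and with each of the 18 arrays left out in turn 18 to 28 did. The share of all probes in those fits is not given beside these counts. Slbp (0.09 ± 0.09), Aurka (0.28 ± 0.24) and Cdc45 (0.09 ± 0.15) were the 3 members with positive slopes. When the same 18 arrays were fitted on the luteal score, the smallest unadjusted limma p among members was 0.147, for Gmnn. Bub1 had -0.03 ± 0.15 and Plk1 -0.06 ± 0.17 per unit of that score. The slopes on Akr1c18 thus describe 1 gene's level and not the luteal score.

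**Figure D5:**
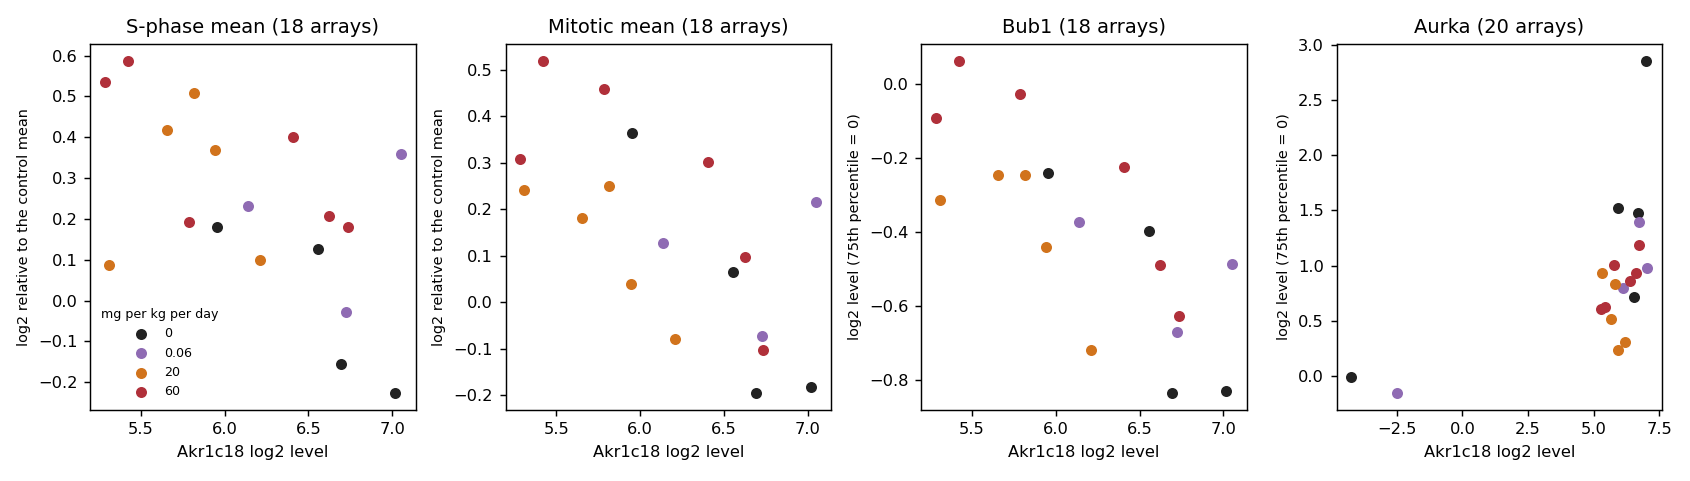
S-phase mean, mitotic mean, Bub1 and Aurka (y axes, log2) against the log2 level of Akr1c18 (x axes), with dose by colour. The first 3 panels show the 18 arrays of high Akr1c18, where the mitotic mean and Bub1 are lower on arrays with more Akr1c18, and the Aurka panel shows all 20 arrays, with those of low Akr1c18 at -4.23 and -2.48 at the left.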

How the data were processed

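RNA of 20 whole ovaries was hybridised to single-colour Agilent rat arrays. Per the file headers, spot intensities were read on a G2600D scanner and background-corrected and spatially detrended by Feature Extraction 11.5.1.1, and the array design refers to build rn4. The authors' deposited value table holds log2 values that were normalized and centred on a baseline it does not state, and it was used only as an alternative.

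Control spots were left out, spots of a probe were averaged, and log2 processed intensity minus log2 of the array's 75th percentile was analysed. Of 30367 probes, 23258 were well above background on at least 4 of 20 arrays and were tested with limma 3.58.1 in R 4.3.3, with Benjamini-Hochberg adjustment and all 4 groups in one fit. Genes were named by matching transcript accessions to RefSeq, which gave 1 symbol for 18745 probes and none for 11590, and 32 probes were dropped. Each gene was read at its brightest probe. The marker scores and the levels of Cyp17a1 and Akr1c18 were fitted beside dose group, and co-variation was computed on residuals of dose and slide. Each animal was from a separate litter, and precision is limited by how many arrays there are.

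Genes given in full were 13 fixed names (Mki67, Top2a, Cdk1, Ccnb1, Foxm1, Mcm2, Mcm3, Pcna, Rrm2, E2f1, Slbp, Ccnd1 and Ccnd2) and, in each comparison, up to 6 members of smallest unadjusted p under 0.05, with up to 4 genes from each further list and the 10 genes most like each class mean. The members, lists and tests were chosen with earlier results of these data known. Alternatives were quantile normalization, normexp with an offset of 50 on the median spot signal (used in place of the mean signal), other filters on dim probes, the deposited table, slide or replicate number as a block, array weights, the mean of a gene's probes, and leaving out each array.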

Additional observations from a re-analysis of the deposited data

Results flagged for a closer look

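Within dose groups, 136 sets of array values over 34 genes and means were searched for an array far from the others by Dixon's test, and 3 were found, where chance alone gives about 5% of groups. Gmnn, the inhibitor of replication licensing, stood at -2.24 in 0.06 replicate 2, against -1.61 on the nearest array of its group. Tpx2, the spindle assembly factor, stood at -2.87 on the same array, against -2.11. Tk1, the thymidine kinase, stood at 0.30 in 60 replicate 1, against 1.27 on the nearest array. The array 0.06 replicate 2 also had the lowest S-phase and mitotic means of the 20 and low Akr1c18.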

How the results depend on the processing

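In the dose comparisons and the joint test, 0 of 42 members passed an adjusted p of 0.05 in limma under every alternative run, as with the main settings. At 60 the count at an unadjusted p under 0.05 was 16, and it was 15 with slide as a block, 17 with quantile normalization, 23 with normexp, 18 with the deposited table, 14 with array weights and 12 with the mean of a gene's probes. Same-numbered animals had a median r of 0.03 over 27 pairs (lowest -0.31), against -0.02 over 122 pairs of other numbers. Among pairs on different slides these medians were -0.13 and -0.10. A low r cannot settle whether the numbers pair the samples, so the replicate block is given as an alternative. With the replicate block the count at 60 was 9, at 20 it was 7, and 0 members passed an adjusted p. The smallest adjusted limma p at 60 was then 0.464. The share of all probes under each alternative is not given beside these counts. A change in the members and a change in all probes therefore cannot be told apart here. The S-phase mean at 60 exceeded controls by 0.135 on slide 2 and 0.58 on slide 3, the mitotic mean by 0.034 on slide 2, and the gap at 20 was -0.35 on slide 1 and -0.011 on slide 3, where the cause was not tested and slides hold 1 to 3 arrays of a group.

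With each array left out, the slide effect gave 0 to 1 members, the macrophage score 0 to 2, the endothelial score 0 to 1, Cyp17a1 0 to 1 and Akr1c18 0 to 3. The macrophage score gave 1 with quantile normalization and 1 with the deposited table, and 0 with slide as a block and 0 without its 2 farthest arrays. Cyp17a1 gave 1 with the deposited table. Akr1c18 gave 1 with no filter on dim probes and 1 with slide as a block, and 0 without the arrays of low Akr1c18, with or without slide as a block. The causes of these shifts were not tested. All 42 members were above background on all arrays, so signal over background did not limit their detection.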

Other observations

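Oocyte and smooth muscle markers had unequal means at the 2 higher doses, with none at an adjusted p under 0.05 in limma. Of 14 oocyte markers, 1 had a higher mean at 20 than in controls (background 57.9%), by a median of -0.44 over the list. At 60, 13 had a higher mean (background 39.7%), by a median of 0.18. Compared directly, 13 of 14 were higher at 60 than at 20 (background 36.2%), by a median of 0.61. Of them, 8 had an unadjusted p under 0.05 (background 0.778% higher) and 0 an adjusted one in limma. Their mean level ranged from -3.11 to -1.57 at 60 and from -3.30 to -2.74 at 20. The oocyte markers also differed by slide, 11 of 14 at an unadjusted p under 0.05 (background 32.5%) and 2 at an adjusted one (background 19.2%). Their mean scores were 0.24, -0.55 and 0.23 on slides 1 to 3. Those slides held 1, 1 and 3 arrays at 20 and 2, 3 and 1 at 60, and the part of slide in the oocyte differences was not tested. Of 7 smooth muscle markers, all 7 had higher means at 20 than in controls (background 57.9%), by a median of 0.38, and 3 of 7 did at 60 (background 39.7%). Compared directly, 0 of 7 were higher at 60 than at 20 (background 36.2%), by a median of -0.35, and 1 was lower at an unadjusted p under 0.05 (background 4.90% lower).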
